A study of Mus musculus with 4 samples.

Results

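Acp6, Il17rd, Csrp3, Pigx, Tns1, Tpbg and Sult1d1 are 7 mouse genes grouped for a gap between Cdk5r1 knockout and wildtype macrophages. Its fitted size differed between the resting and the LPS-stimulated state. They were picked for that pattern on these same arrays, so their genotype ratios and LPS responses are described here with no test. All probes carrying an accession of the 7 genes were taken, which gave 10 probes of the 39429 on the array. In the table of tested features the 7 genes stand among 23570 genes or accessions. Acp6, Pigx, Tns1 and Tpbg were measured in both genotypes and states, while Il17rd, Csrp3 and Sult1d1 had groups not above background. For these last genes the change of the gap between the states was not measured.

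Macrophages were grown from bone marrow of male mice aged 6 weeks in a culture of 7 days containing 25 ng/ml GM-CSF, a myeloid growth factor. They were left unstimulated or exposed to LPS, a cell wall component of E. coli that activates macrophages, at 100 ng/ml for 6 h. Each of the 4 two-colour Agilent arrays, 2 basal and 2 LPS, set wildtype RNA (Cy3) against Cdk5r1 knockout RNA (Cy5), with 10 µg of total RNA per labelling. Both channels carry the strain label B6.129S4-Cdk5r1tm1Lht/J, the labels name no individual animals, and they call the arrays biological replicates, so p-values measure only the spread between these samples. The product of Cdk5r1, p35, activates the kinase CDK5, and the labels name no promoter or cell type to which the knockout is limited.

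The 7 genes belong to separate pathways. IL17RD is a membrane protein of the interleukin-17 receptor family that restrains signalling from FGF receptors to ERK, and TPBG is a leucine-rich repeat glycoprotein of the cell surface that dampens WNT signalling through LRP6. ACP6 is a mitochondrial phosphatase that removes the phosphate of lysophosphatidic acid, SULT1D1 is a cytosolic sulfotransferase, and PIGX is the stabilising subunit of the enzyme that adds the first mannose to a GPI anchor. Tensin 1, the product of Tns1, links integrins to actin at focal adhesions, and CSRP3 is the muscle LIM protein, known from the Z-discs of heart and skeletal muscle.

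Promoter sequence was printed for the loci on which the results below turn, a choice made after the values were seen. Pigx is shown because it shares its start region with a neighbour that fell with it, Acp6 because LPS moved it in opposite directions in the 2 genotypes, and Tpbg because its gap was present at rest and shrank under LPS. The sequences are from RefSeq, build GRCm38.p6, and run 5′ to 3′ on the gene's strand. Capitals mark matches on either strand to the GC box GGGCGG and, in Tpbg only, to the AP-1 motif TGANTCA. The Pigx line spans the 61 bases between the start sites of Pigx and Cep19, at chr16:32099728-32099788 on the minus strand. The Acp6 and Tpbg lines give the 250 bases before a start site, at chr3:97158527-97158776 and chr9:85842130-85842379 on the plus strand.
Pigx: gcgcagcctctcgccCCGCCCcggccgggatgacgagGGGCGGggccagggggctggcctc
Acp6: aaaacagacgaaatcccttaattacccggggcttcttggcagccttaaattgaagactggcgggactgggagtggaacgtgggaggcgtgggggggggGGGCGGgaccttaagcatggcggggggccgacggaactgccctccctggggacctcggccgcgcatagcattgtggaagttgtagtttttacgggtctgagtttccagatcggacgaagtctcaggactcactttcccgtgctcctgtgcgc
Tpbg: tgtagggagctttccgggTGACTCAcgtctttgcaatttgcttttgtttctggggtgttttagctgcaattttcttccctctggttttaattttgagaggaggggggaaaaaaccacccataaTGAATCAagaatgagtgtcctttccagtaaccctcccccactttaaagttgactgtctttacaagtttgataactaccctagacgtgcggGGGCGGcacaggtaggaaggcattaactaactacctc

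All 7 genes matched the promoter table, with 9 start sites in all. In the 250 bases before each start, 15 motifs were searched on both strands. The GC box was found in 6 of the 9 windows (Acp6, Il17rd, Pigx, Tns1 and Tpbg) and in 32.7% of the 32851 windows of all genes, and TGANTCA in 1 window (Tpbg) and in 6.75% of all. A loose form of the NF-kappaB motif, which can overlap a GC box, matched 6 windows and 45.8% of all. The short motif TGACG, a part of the cAMP response element, matched 2 windows (Csrp3 and Pigx) and 17.8%, TTNCNNAA 3 windows (Acp6 and Csrp3) and 36.8%, and the PU.1 core GAGGAA 1 window (Il17rd) and 23.3%. The other 9 motifs had no match in the 9 windows. They were the NF-kappaB motif (1.41% of all windows) and a stricter form of it (0.356%), the interferon response element (2.98%), TGACGTCA (1.55%), TTNCGNAA (2.04%), TTCNNNGAA (7.02%), TATAAA (12.4%), CACGTG (6.02%) and GCGTGGGCG (0.536%). A match describes letters in the window and nothing about binding.

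A few facts of the arrays touch every value. Per array, the median spot read 76.0 to 97.5 in Cy3 against a median background of 25.0 to 27.0, and 116 to 145.5 in Cy5 against 46.0 to 48.0. Levels below are normalised log2 intensities of 1 probe and ratios are log2 of knockout over wildtype. A fold given as at least a value is a bound on the mean of the 2 arrays of a state, so a single array can lie below it. The dyes were never swapped, so in a single ratio a dye effect of a probe and the genotype cannot be told apart, while a constant dye effect cancels when the basal ratio is taken from the LPS ratio. All 11 macrophage markers with a probe were well above background on both arrays of every group, and some were lower in the knockout (limma). These were Lyz2 (-0.46) and Mrc1 (-0.38) at rest and Cd14 (-0.51), Fcgr1 (-0.47), Marco (-1.09) and Mrc1 (-0.53) under LPS. Cdk5r1 itself had negative log2 ratios on each array, -0.37 and -0.59 at rest and -2.55 and -2.29 under LPS, yet both of its probes stayed above background there. Whether the probes lie in the deleted part is not known here. In a mixed culture, fewer cells of a type and less RNA per cell cannot be told apart.

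Across all 23570 features, 4.87% passed the test (limma, Benjamini-Hochberg adjusted p under 0.05) in the basal genotype comparison, 3.37% higher and 1.49% lower in the knockout. Under LPS 12.4% passed, 7.17% higher and 5.23% lower, and in the difference between the 2 states 0.403%, with 0.28% higher and 0.123% lower. LPS against basal passed for 41.7% in each genotype. The share of all features at an unadjusted p under 0.05 was not computed, so nothing is read from counts at that level below. Past 2-fold on both arrays, 0.577% of features were higher and 0.106% lower in the knockout at rest, and 0.768% and 0.17% under LPS. Of the 7 genes, Tpbg and, against a wildtype channel at background, Sult1d1 were past that fold upwards at rest. Under LPS Acp6, Il17rd and Csrp3 were past it upwards and Pigx and Tns1 downwards. Tns1 was past it on the brighter of its 2 probes only, since the other had LPS ratios of -0.51 and -0.53.

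The ratios of Acp6, Pigx, Tns1 and Tpbg were at least 1 log2 apart between the conditions, with no overlap of arrays. The same held for 0.462% of all features (0.331% higher and 0.132% lower under LPS). The choice of the genes fixes how many of them do so. Tns1 did so on its brighter probe only, since its other kept probe had a difference of -0.32. The other 3 genes are not counted, since their ratio in a state rests on a channel at background. Levels without overlap and at least 1 log2 apart between LPS and basal were seen for 8.32% (higher) and 10.2% (lower) of features in wildtype and for 9.27% and 11.5% in knockout cells. Of the 7 genes, wildtype cells had Il17rd and Tpbg higher and Acp6 and Tns1 lower by that measure. Knockout cells had Acp6, Il17rd, Csrp3 and Tpbg higher and Pigx, Sult1d1 and Tns1 lower. For Il17rd and Csrp3 these rises are bounds against a resting level at background. The 7 genes were chosen on these values, so nothing is read from the counts.

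**Figure D1:**
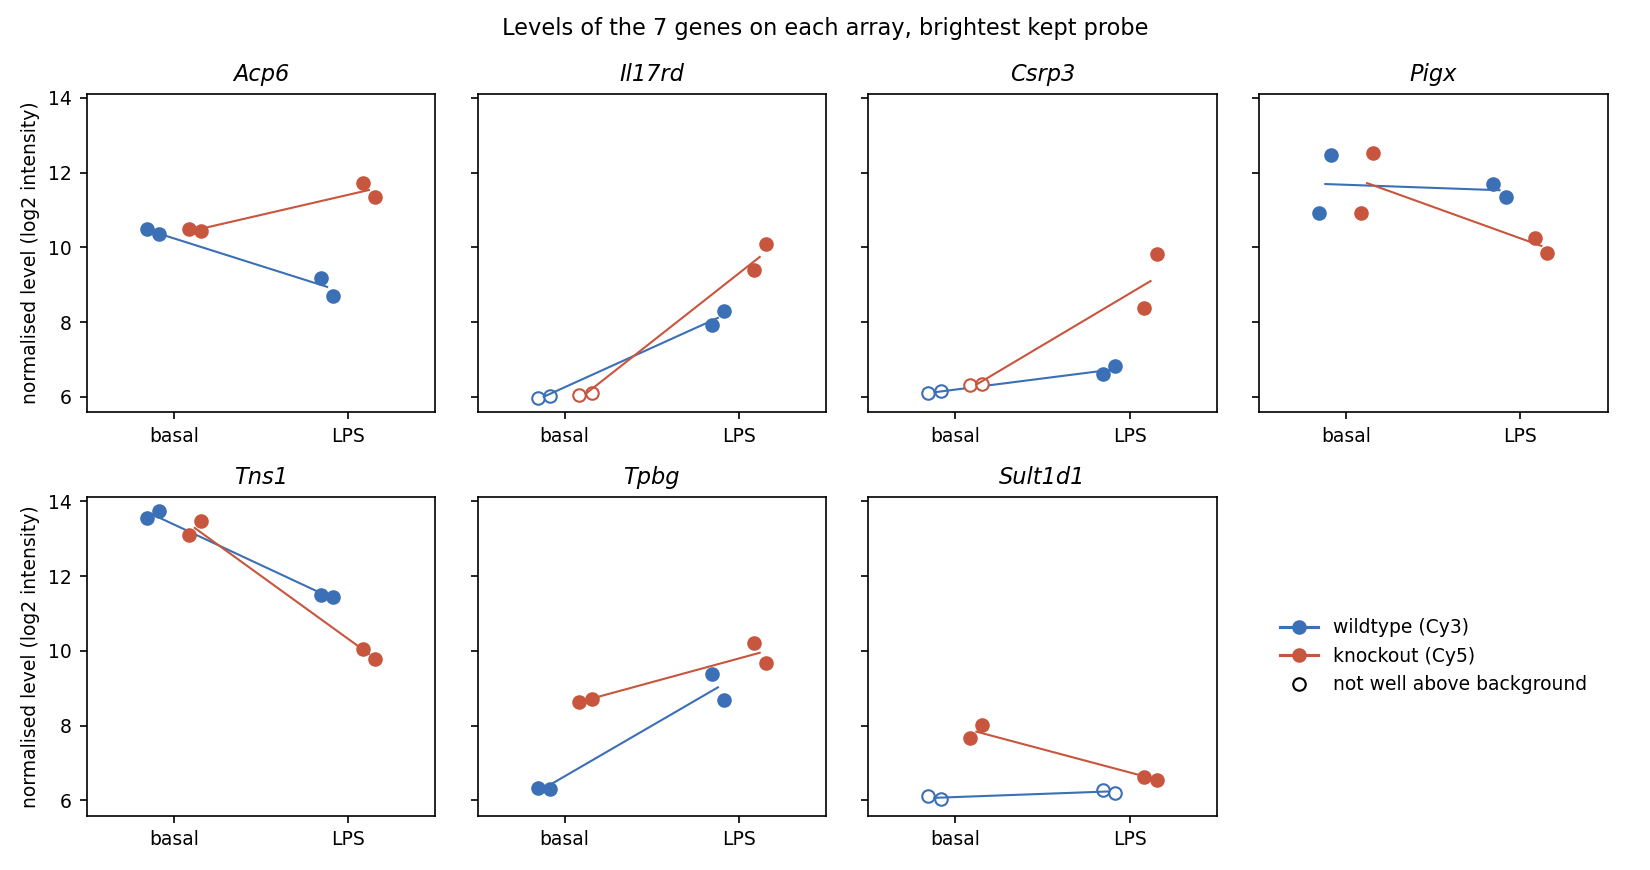
Normalised level (log2 intensity, y axis) of the brightest kept probe of each gene on the 2 basal and 2 LPS arrays (x axis), wildtype in blue and knockout in red, with lines joining the group means and open circles where the spot was not well above background. Acp6 fell in wildtype and rose in knockout cells, Pigx and Tns1 ended lower in knockout cells under LPS, and the wildtype circles of Sult1d1 are open on all 4 arrays.

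Il17rd, the receptor family member, was not well above background at rest in either genotype and came up under LPS in both, further in the knockout. Its spot read 35.0 and 33.5 in Cy3 on the basal arrays over local backgrounds of 27.0 and 25.0, and 51 and 50 in Cy5 over 48.0 and 44.0. Under LPS it read 141 and 198 in Cy3 and 639 and 1032 in Cy5. The normalised wildtype level was thus 5.98 and 6.03 at rest and 7.92 and 8.31 under LPS, and the knockout level 6.05 and 6.11 and then 9.40 and 10.09.

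Both LPS arrays lay above both basal arrays in each genotype, and the knockout levels under LPS lay above the wildtype ones. On the mean of the 2 arrays, LPS over basal was at least 3.99-fold in wildtype and at least 12.3-fold in knockout cells. The floor was the higher of the lowest signal well above background and the probe's own signal. With 1 array left out, the fitted log2 rise was 1.91 to 2.30 in wildtype and 3.32 to 4.01 in knockout cells. These sizes rest on the offset at the resting level. An offset of 10 gave 3.25 in wildtype and 4.91 in knockout cells, and the processed signals gave 6.4 and 7.57. Under LPS the log2 ratio was 1.48 on replicate 1 and 1.78 on replicate 2, a mean of 1.63 ± 0.211 (SD, n = 2) or 3.1-fold. No ratio was measured at rest because both channels were at background, so the size of the difference between conditions is not known for Il17rd.

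The other interleukin-17 receptors, ligands and adaptors, had a kept probe for 12 genes, and 0 of 12 passed in the difference (limma; 2 at an unadjusted p under 0.05). Il17a, a cytokine of the family, was higher in the knockout in both states, but its wildtype spot was above background on only 1 basal array and on no LPS array. The fitted log2 ratio was 1.21 ± 0.147 at rest (SE, n = 2 arrays, limma adjusted p = 0.00666), and under LPS the knockout was at least 2.53-fold higher (adjusted p = 0.003). With the processed signals the log2 ratio was 3.79 at rest and 3.97 under LPS, so the size is not fixed by these data. Its LPS call was lost in 4 of 12 alternatives, without LPS replicate 1 (adjusted p = 0.0627), without LPS replicate 2 (0.0789), with the processed signals (0.0533) and with the authors' value table (0.0529). The basal call was lost in 2, the processed signals (0.088) and the authors' value table (0.0867). Traf3ip2, the adaptor that carries interleukin-17 signals, was higher by 0.33 under LPS (adjusted p = 0.0462), a call lost in 6 of 12 alternatives. Il17ra, the shared receptor chain, had 0.03 there and Il17rc had -0.01, and neither passed. Because IL17RD restrains FGF signalling, 19 genes of FGF receptors and ERK feedback were read beside it, and none passed at rest (5 at an unadjusted p under 0.05). Under LPS 3 of the 19 were lower, the ERK phosphatase genes Dusp6 (-0.90 ± 0.0765, adjusted p = 0.00132) and Dusp7 and the feedback inhibitor Spry1 (-0.48), and 1 was higher, Dusp5 (0.43). The Dusp6 call held in all 12 alternatives, with log2 ratios from -1.13 to -0.78. Dusp7 was not above background in the knockout under LPS and was at least 1.2-fold lower there (adjusted p = 0.048), a call lost in 5 of the 12. Spry1 had -0.91 with the processed signals and lost its call without either LPS replicate (adjusted p = 0.175 and 0.0596), and Dusp5 lost it in 4 of 12. In the difference 0 of the 19 passed (4 at an unadjusted p under 0.05).

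Tpbg showed a gap already at rest that narrowed under LPS. All its spots were well above background, but the wildtype spot at rest was dim, at 52.0 and 57.0 in Cy3 over local backgrounds of 27.0 and 30.0. The knockout spot read 509 and 535.5 in Cy5 at rest. Under LPS the spots read 425.5 and 267 in Cy3 and 1148.5 and 769.5 in Cy5. Wildtype levels rose from 6.33 and 6.31 to 9.37 and 8.68, and knockout levels from 8.64 and 8.72 to 10.22 and 9.68.

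Knockout was above wildtype on each of the 4 arrays, and LPS levels were above basal ones in both genotypes with no overlap. The log2 ratio was 2.31 and 2.41 at rest (mean 2.36 ± 0.0676, SD, n = 2, 5.14-fold) and 0.85 and 1.00 under LPS (0.92 ± 0.108, 1.89-fold). Wildtype cells rose by 2.71 (6.53-fold) with LPS and knockout cells by 1.27 (2.41-fold), which makes a difference of ratios of -1.44. From its dim resting spot, the wildtype rise was 3.59 with an offset of 10 and 4.34 with the processed signals. The knockout rise was 1.4 and 1.16 with these. The ratio at rest depends on the offset added to dim spots. It was 3.18 with an offset of 10 in place of 50 and 4.12 with the scanner's processed signals. The LPS ratio was between 0.85 and 1.05 over 12 alternatives. Of these, dropping the filter, means over probes, leaving out a basal array and the replicate blocks cannot change it.

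Of 19 other genes of WNT receptors, antagonists and targets, 1 was higher and 1 lower at rest and 2 were higher under LPS. Lef1, a transcription factor of the pathway, was higher at rest by 1.01 ± 0.0752 (log2, SE, n = 2, limma adjusted p = 0.000961) and had 0.24 under LPS (adjusted p = 0.0919), a difference of -0.77 whose adjusted p was 0.054. Under LPS Lef1 was above background on 1 of 2 arrays in each genotype. Its basal call held in all 12 alternatives, with ratios from 1.00 to 1.91. Fzd1, a WNT receptor, was lower at rest by 0.61 (log2 ratio -0.61, adjusted p = 0.0229), a call lost without basal replicate 1 (adjusted p = 0.13), without LPS replicate 1 or 2 (0.0769 each), with the processed signals (0.0587) and with the authors' value table (0.0578). Under LPS the receptor gene Fzd4 was higher by 0.70 ± 0.0744 (adjusted p = 0.00266, and by 1.5 with the processed signals) and Ctnnb1, which encodes beta-catenin, by 0.36 (adjusted p = 0.0215). The Fzd4 call was lost in 1 and the Ctnnb1 call in 5 of the 12 alternatives. Lrp6, through which TPBG acts, had 0.05 and -0.19 and passed in neither state. None of the 19 passed in the difference (5 at an unadjusted p under 0.05).

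Acp6 differed by at most 0.08 log2 between the 2 genotypes at rest and moved in opposite directions with LPS. Its level on the 2 basal arrays was 10.48 and 10.36 in wildtype and 10.48 and 10.44 in knockout cells. On the LPS arrays it was 9.19 and 8.70 in wildtype and 11.71 and 11.36 in knockout cells. The unnormalised spots show the same order, at 1289 and 1364.5 falling to 372.5 and 268 in Cy3, and at 1968 and 2071.5 against 3352 and 2531 in Cy5.

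Neither genotype's LPS levels overlapped its basal levels. Wildtype fell by 1.48 on the log2 scale (2.78-fold) and knockout rose by 1.07 (2.1-fold). The log2 ratio was 0.00 and 0.08 at rest (mean 0.04 ± 0.0579, SD, n = 2) and 2.52 and 2.66 under LPS (2.59 ± 0.101, 6.02-fold), a difference of 2.55. Acp6 has 1 probe on the array. Over the 12 alternatives the difference ranged from 2.48 to 2.75. Dropping the filter, means over its 1 probe and the replicate blocks cannot change it.

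**Figure D2:**
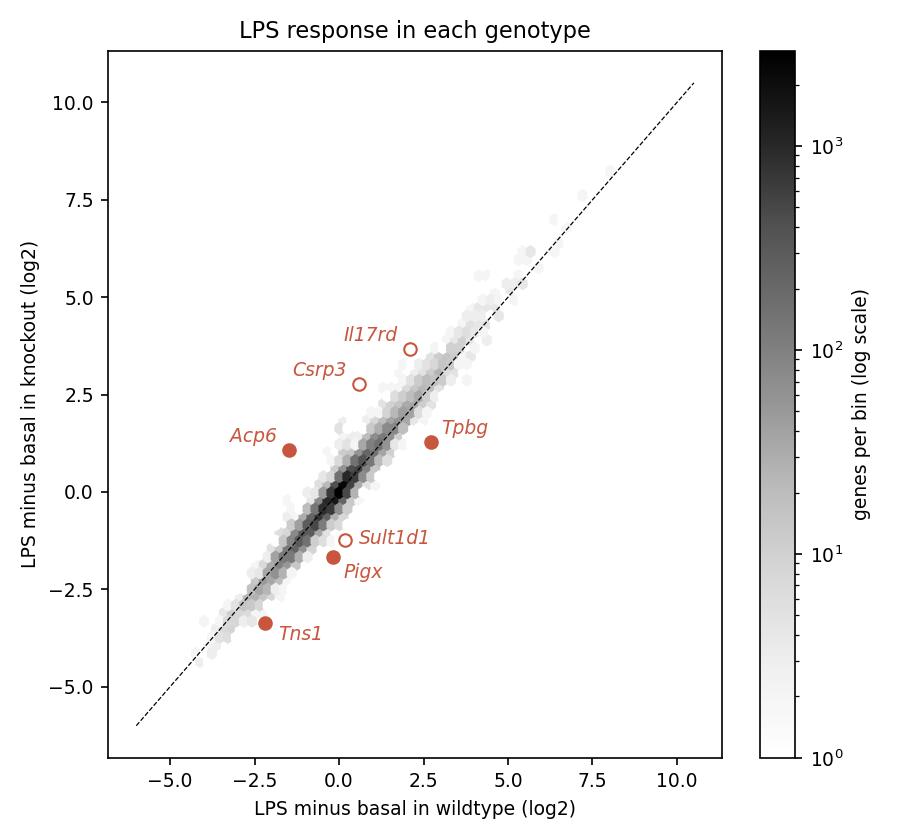
LPS minus basal level (log2) in wildtype (x axis) and knockout cells (y axis) for all 23570 features, binned in grey on a log colour scale, with the 7 genes in red and the dashed line marking an equal response. Open circles mark genes with a group not above background, whose position is not a measured change. Acp6 lies at -1.48 and 1.07, on opposite sides of 0, and Tpbg lies below the line at 2.71 and 1.27.

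The related genes, 23 acid phosphatases and genes of lysophosphatidic acid metabolism, were read beside it, and 0 of 23 passed in the difference (limma; 4 at an unadjusted p under 0.05). At rest 1 was lower, Agpat4 (-0.45, adjusted p = 0.048), an acyltransferase that uses lysophosphatidic acid. Under LPS Plpp1 (-0.74, adjusted p = 0.0107), a lipid phosphate phosphatase of the cell membrane, Agpat4 (-0.48) and Agpat5 (-0.29) were lower, and Lpar4, a receptor for lysophosphatidic acid, was higher by 0.64 ± 0.0872 (SE, n = 2, adjusted p = 0.00655). The other kept Plpp1 probe had -0.11. Of the 12 alternatives, the Agpat4 call was lost in 8 at rest and in 6 under LPS. The Agpat5 call was lost in 9 and the Plpp1 call in 5. Lpar4 lost its call in 1, the fit without LPS replicate 1.

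Sult1d1 gave signal in the knockout channel only. On its brighter probe the wildtype spot never rose well above background, at 40.0, 38.0, 39.0 and 38.5 in Cy3 over local backgrounds of 27.0, 28.0, 25.0 and 25.0. In Cy5 the same spot was well above background on all 4, at 230 and 293 at rest and 90.0 and 77.0 under LPS. Knockout levels were 7.67 and 8.01 at rest and 6.64 and 6.56 under LPS, with no overlap between the states.

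On the mean of the arrays of a state, knockout over wildtype was at least 3.27-fold at rest and at least 1.28-fold under LPS. The knockout level fell by 1.24 on the log2 scale (2.36-fold) with LPS. The change was between -2.37 with the processed signals and -0.83 with scaling to the 75th percentile. The fitted log2 ratios, 1.56 and 1.98 at rest and 0.37 and 0.35 under LPS, rest on the offset in the wildtype channel. They averaged 5.20 and 1.93 with the processed signals. The other Sult1d1 probe was not well above background in either channel on any array and was not kept, so 1 probe carries this gene. None of the 12 other sulfotransferase and sulfate donor genes passed at rest, under LPS or in the difference (limma; 2, 2 and 1 at an unadjusted p under 0.05).

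Pigx differed by no more than 0.10 log2 between the 2 genotypes at rest and was lower in the knockout under LPS, on both of its probes. On the brighter probe the wildtype level was 10.93 and 12.46 at rest and 11.70 and 11.36 under LPS. The knockout level was 10.92 and 12.52 at rest and 10.24 and 9.84 under LPS. The 2 basal arrays thus differed by over 1 log2 in both channels at once, while the ratio within each array hardly moved.

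The log2 ratio of this probe was -0.01 and 0.06 at rest (mean 0.02 ± 0.0452, SD, n = 2) and -1.46 and -1.51 under LPS (-1.49 ± 0.0359, 2.81-fold lower in the knockout). The other probe gave 0.06 and 0.10 at rest and -1.23 and -1.28 under LPS. The differences were -1.51 and -1.33. Wildtype levels under LPS lay within the range of the basal ones, so no LPS response is given for them, and knockout levels under LPS lay below both basal ones.

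Cep19, which encodes a centrosomal protein, starts 62 bases from Pigx on the opposite strand, and it followed the same pattern. Its wildtype level was 10.32 and 11.26 at rest and 10.53 and 10.46 under LPS, and its knockout level 10.43 and 11.23 at rest and 9.38 and 9.43 under LPS. The log2 ratios were 0.12 and -0.03 at rest and -1.15 and -1.03 under LPS. Cep19 was reached as the nearest measured gene beside Pigx and was not chosen on its own values. Pigx, however, was chosen on this difference from the same arrays, and the levels of both genes moved together. The Cep19 test is therefore not independent of that choice. The ratio was 0.04 ± 0.0752 at rest (SE, n = 2, limma adjusted p = 0.794) and -1.09 ± 0.0752 under LPS (adjusted p = 0.000603), a difference of -1.13 ± 0.106 (adjusted p = 0.0155).

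The Cep19 difference was between -1.27 and -1.06 over 12 alternatives, but its call did not hold in all of them. Dropping the filter, means over probes and the replicate blocks cannot change the size of the difference. The adjusted p was 0.124 with processed signals, 0.119 with the authors' value table, 0.0518 with an offset of 10, and 0.134 and 0.171 without LPS replicate 1 and 2. The nearest measured gene on the other side of Pigx, Pak2, had -0.02 at rest and -0.01 under LPS. Levels were also compared among the 6525 genes with a symbol and a range of at least 1 log2. Those of Cep19 were the closest to the levels of Pigx (Pearson r = 0.9679 over 8 levels, 2 from each array).

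**Figure D3:**
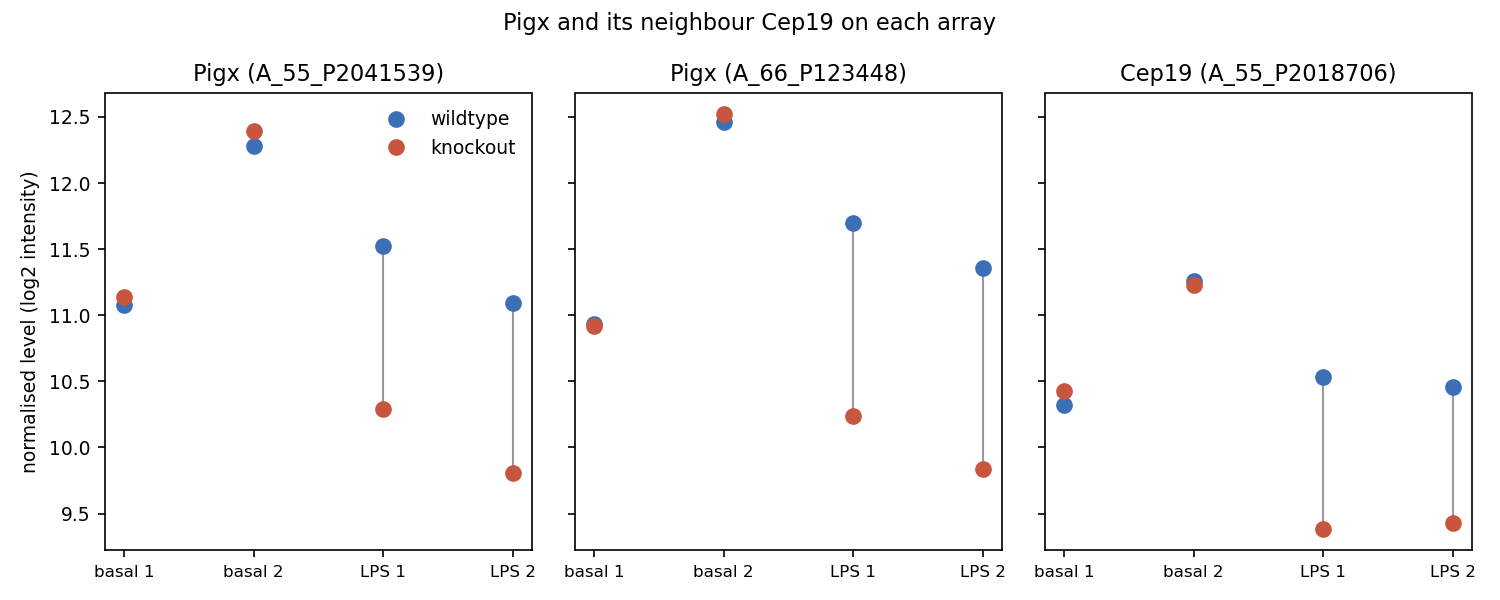
Normalised level (log2 intensity, y axis) of both Pigx probes and of the Cep19 probe on each of the 4 arrays (x axis), wildtype in blue and knockout in red, with grey lines joining the channels of an array. The channels coincide on the basal arrays and separate on both LPS arrays, by 1.46 and 1.51 and by 1.23 and 1.28 for the Pigx probes and by 1.15 and 1.03 for Cep19, and basal 2 stands above basal 1 in all 3 panels.

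Of 27 other genes of GPI anchor synthesis and transfer, 2 were higher at rest, and 4 were higher and 2 lower under LPS. Pigt, a subunit of the transamidase that attaches the anchor, was higher at rest by 0.62 ± 0.0684 (SE, n = 2, limma adjusted p = 0.00496), a call that held in all 12 alternatives, and by 0.45 under LPS (adjusted p = 0.00966). Pigm, the catalytic partner of PIGX, was higher by 0.37 at rest (adjusted p = 0.0398) and 0.34 under LPS (adjusted p = 0.0301), and lost the call in 8 and 6 of the 12 alternatives. Also under LPS, Piga, which acts in the first step of the pathway, had -0.46 (adjusted p = 0.0104), a call lost in 4 of the 12. Pign had 0.43 (adjusted p = 0.0393) and Pigp 0.40 (adjusted p = 0.0162), calls lost in 7 and 5 of the 12. The other kept probes of Pign and Pigp had 0.01 and -0.09. In the difference 0 of the 27 passed (2 at an unadjusted p under 0.05).

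Tns1 was strongly expressed at rest in both genotypes and fell with LPS in both, further in the knockout. On the brighter probe the wildtype level was 13.56 and 13.73 at rest and 11.49 and 11.45 under LPS. The knockout level was 13.11 and 13.47 at rest and 10.05 and 9.79 under LPS. Knockout was below wildtype on each array, and under LPS the 2 genotypes did not overlap.

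The log2 ratio was -0.46 and -0.26 at rest (mean -0.36 ± 0.136, SD, n = 2) and -1.43 and -1.66 under LPS (-1.55 ± 0.159, 2.92-fold lower). Wildtype fell by 2.18 and knockout by 3.37 on the log2 scale. The other Tns1 probe gave -0.37 and -0.02 at rest and -0.51 and -0.53 under LPS, and its level fell by 2.02 in wildtype and fell by 2.34 in knockout cells. The 2 probes therefore shared the direction and disagreed in size, with differences of -1.19 and -0.32. With the processed signals the second probe was the brighter one, and the value of the gene became -0.35.

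**Figure D4:**
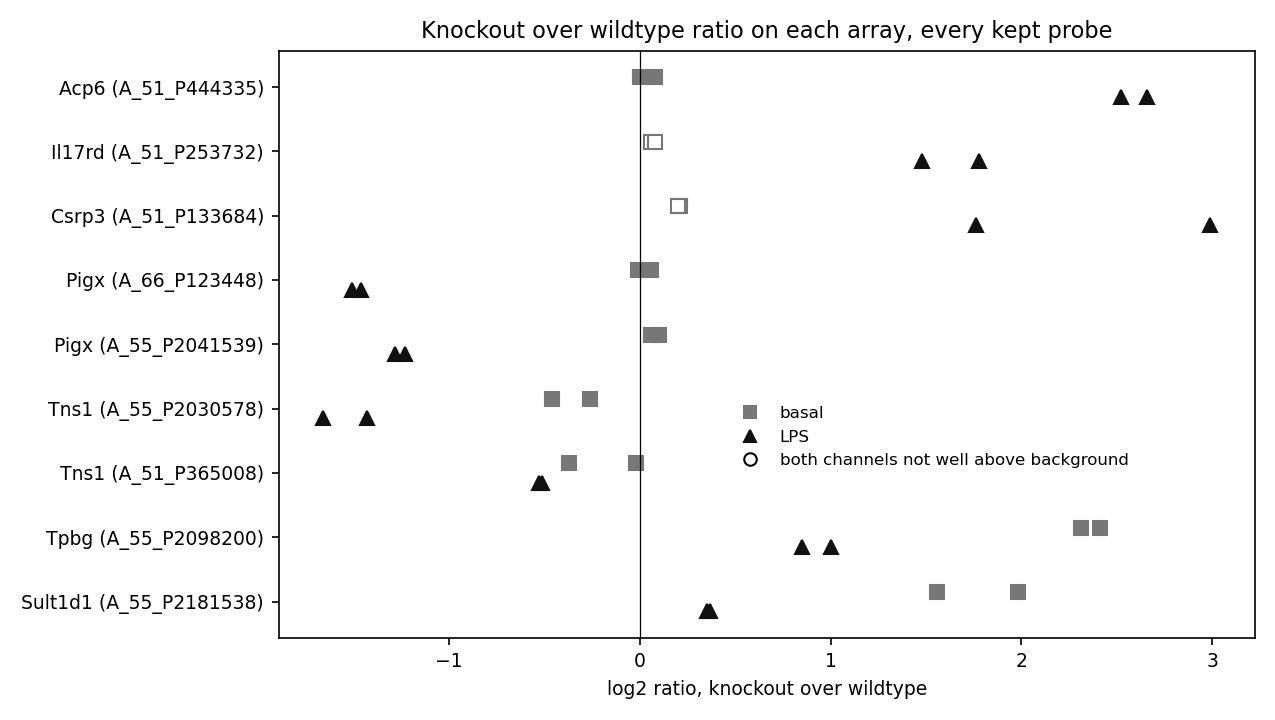
Log2 ratio of knockout over wildtype (x axis) on each array for every kept probe of the 7 genes (y axis), with grey squares for basal and black triangles for LPS arrays and open symbols where both channels were not well above background. The 2 Pigx probes fall together, from near 0 to between -1.51 and -1.23 under LPS, while the Tns1 probes part, at -1.43 and -1.66 against -0.51 and -0.53.

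None of 28 other tensin and focal adhesion genes passed at rest or in the difference (limma; 3 and 1 at an unadjusted p under 0.05). Under LPS 3 were higher, the integrin genes Itgav (0.30, adjusted p = 0.0467) and Itgb1 (0.27, adjusted p = 0.0495) and the actin crosslinker gene Actn1 (0.32, adjusted p = 0.0321). The other kept Itgb1 probe had -0.01. Of the 12 alternatives, the call was lost in 7 for Itgav, in 9 for Itgb1 and in 6 for Actn1. The tensin genes Tns3 and Tns4 had -0.01 and 0.09 under LPS and did not pass, and neither did Tns2, which was not above background in the knockout.

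Csrp3, the muscle LIM protein gene, appeared under LPS and mainly in the knockout channel. At rest its spot read 39.0 on both arrays in Cy3 and 61.0 and 62.0 in Cy5, and it was not well above background in either channel. Under LPS the wildtype spot read 48.0 and 53.0, just above background, and the knockout spot 311 and 868.5. Levels were 6.10 and 6.15 and then 6.62 and 6.82 in wildtype, and 6.31 and 6.35 and then 8.38 and 9.82 in knockout cells.

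Knockout and wildtype did not overlap under LPS, and the 2 knockout levels differed by over 1 log2 from each other. On the mean of the 2 arrays, LPS over basal was at least 1.51-fold in wildtype and at least 6.8-fold in knockout cells. With 1 array left out, the fitted log2 rise was 0.50 to 0.70 in wildtype and 2.05 to 3.49 in knockout cells. These sizes also rest on the offset. An offset of 10 gave 0.92 in wildtype and 3.63 in knockout cells, and the processed signals gave 3.06 and 5.94. The log2 ratio under LPS was 1.76 on replicate 1 and 2.99 on replicate 2 (mean 2.38 ± 0.875, SD, n = 2, 5.19-fold), the widest spread among the 7 genes. It was 4.22 with the processed signals, and no ratio was measured at rest.

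Striated muscle markers were read beside Csrp3. Of 14 with a probe, 5 to 8 per group were well above background on both arrays, and Actc1, Actn2, Des, Myh1 and Myl1 were so in no group. The summed level of the list was 12.25 to 12.39 in wildtype and 12.05 to 12.26 in knockout cells at rest, and 11.69 to 11.97 and 11.38 to 11.67 under LPS. Of the 8 that were tested, none passed at rest and 1 was lower under LPS (limma; 1 and 1 at an unadjusted p under 0.05), and their part in the Csrp3 values was not tested. Among 21 other genes of CSRP and CRIP LIM proteins and their partners, Pdlim4 (-0.76, adjusted p = 0.015) and Fhl2 (-0.39, adjusted p = 0.035, and -1.35 with the processed signals) were lower at rest, the knockout spot of Fhl2 being above background on 1 of 2 arrays. Under LPS Csrp1 (0.47, adjusted p = 0.0129) and Crip2 (0.40, adjusted p = 0.0402) were higher, and Pdlim2 (-0.44, adjusted p = 0.00918) and Ttn lower. Ttn was above background under LPS only in wildtype cells, and it was at least 1.16-fold lower in the knockout (adjusted p = 0.0478). At rest the Pdlim4 call was lost in 5 and the Fhl2 call in 6 of the 12 alternatives. Under LPS Csrp1 lost its call in 4, Crip2 in 6, Pdlim2 in 2 and Ttn in 5. In the difference 0 of the 21 passed (limma; 5 at an unadjusted p under 0.05).

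**Figure D5:**
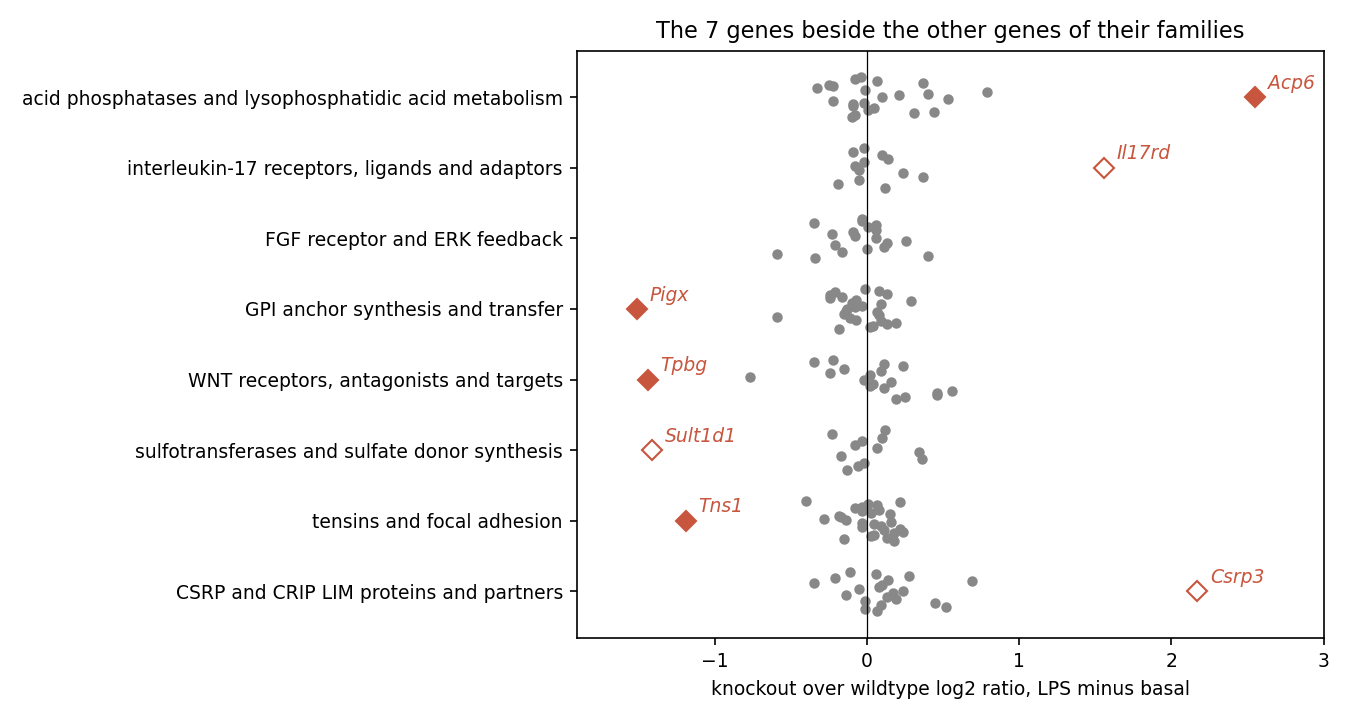
Difference of the knockout over wildtype log2 ratio, LPS minus basal (x axis), for the 161 measured genes of the 8 family lists (grey dots, 1 per gene) and for the 7 genes (red diamonds, open where a group was not above background). The grey dots lie between -0.77 and 0.79, and the 4 filled diamonds, genes chosen for large differences, lie outside that range. Diamonds show the brightest kept probe, and the other Tns1 probe, with -0.32, is not drawn. The open diamonds are not measured differences.

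Over the 8 lists together, 161 genes were measured. At rest 4 were higher and 4 lower, which is 4.97% against 4.87% of all features. Under LPS 15 were higher and 10 lower, 15.5% against 12.4%. In the difference 0 of 161 passed (limma; 24 at an unadjusted p under 0.05), against 0.403% of all features. The median difference was 0.02 against 0 over all features. The LPS calls rest on both LPS arrays: 2 of the 25 held without LPS replicate 1 and 2 without LPS replicate 2. Without basal replicate 1 or 2, 21 of the 25 held each time. Of the 8 basal calls, 4 held without basal replicate 1, 5 without basal replicate 2, and 3 without either LPS replicate. In at least 1 of the 12 alternatives the log2 ratio moved by over 1.5 times for 17 of the 25 LPS calls and 4 of the 8 basal ones.

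Among the 14 nearest measured genes on either side of the 7, 1 passed at rest, 4 under LPS and 1, Cep19, in the difference (limma). Of all features 4.87%, 12.4% and 0.403% passed. At an unadjusted limma p under 0.05 there were 3, 5 and 6 of the 14. Gja5, a gap junction gene with 5 genes between it and Acp6, was higher by 1.46 at rest (adjusted p = 0.000207) and by 1.19 under LPS (adjusted p = 0.000405), but its other kept probe had -0.13 and -0.03. Appl1, beside Il17rd, was higher under LPS by 0.33 (adjusted p = 0.0292) and E2f8, beside Csrp3, by 0.54 (adjusted p = 0.0094). The calls of Appl1 and E2f8 were lost in 6 and 4 of the 12 alternatives. Bcl9, the next gene after Acp6, had -0.05 and 0.30 and did not pass.

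Genes with the most similar levels were found among the 6525 genes with a symbol by Pearson r over the 8 levels, which share 4 arrays. They were selected for their pattern, so their values carry no test. For Acp6 the closest was Arhgap19 (r = 0.9521), with a log2 ratio of 0.16 at rest and, against a wildtype channel at background, at least 4.07-fold under LPS. Its other kept probe was above background only in wildtype at rest. D5Ertd605e followed (r = 0.8882). For Csrp3 the closest were Gldnos (r = 0.9921) and Rasgrf1 (r = 0.9876). Both were above background only in the knockout under LPS, at least 2.3-fold and 3.41-fold over wildtype on the mean of the LPS arrays. For Il17rd they were Aspg (r = 0.9975), which rose with LPS by 1.33 in knockout cells, and Cpm (r = 0.996), which rose there at least 2.2-fold from a level at background.

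For Sult1d1 the nearest in level were Ppp1r3a (r = 0.9958) and Gm10714 (r = 0.9957), neither above background in wildtype on any array. The knockout was at least 2.38-fold and 1.92-fold higher at rest. Under LPS Ppp1r3a was above background on 1 knockout array and Gm10714 on none. For Tpbg the nearest were Nxf3 (r = 0.9765) and Tbata (r = 0.9705). Nxf3 was at least 1.68-fold higher in the knockout at rest, with the wildtype at background, and had 0.22 under LPS. Tbata had 0.63 and 0.36, although other kept Tbata probes had basal ratios of 0.02 and 0.11. Chac1 followed Cep19 for Pigx (r = 0.9615, 0.04 and -0.49). Nfe2l2 and Lman2 were closest to Tns1 (both r = 0.9931), with LPS ratios of -0.36 and -0.33.

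Markers of other myeloid cells differed in part between the genotypes. Of 10 tested neutrophil markers 5 were lower in the knockout at rest and 6 under LPS, and of 7 eosinophil markers 3 and 4 (limma). The neutrophil ones were Camp, Ltf, Ngp, S100a8 and S100a9 in both states and Mmp8 under LPS. Elane, Mpo, Csf3r and Cxcr2 passed in neither state. Among eosinophil markers Epx, Prg2 and Prg3 were lower in both states and Ear6 under LPS, while Siglecf, Ccr3 and Il5ra passed in neither. In resting wildtype cells S100a9, Csf3r and S100a8 were the brightest tested neutrophil markers. The summed level of 11 neutrophil markers was 17.49 to 17.82 in wildtype and 16.98 to 17.19 in knockout cells at rest, and 18.29 to 18.42 and 17.15 to 17.21 under LPS, with 10 of 11 above background at rest in both. Mmp9 was above background in no group. Eosinophil markers, all 7 above background, were at 13.56 to 13.78 and 13.06 to 13.48 at rest and at 14.19 to 14.66 and 13.28 to 13.35 under LPS. Of 7 tested mast cell and basophil markers 2 were higher in each state, Cpa3 (0.81) and Mcpt8 (0.73) at rest and Cpa3 (0.57) and Kit (0.86) under LPS. Their summed level was 11.31 to 11.40 in wildtype and 11.54 to 12.26 in knockout cells at rest and 11.27 to 11.30 and 11.78 to 11.82 under LPS, and Ms4a2 was above background in no group.

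Of 9 tested dendritic cell markers none passed at rest (3 at an unadjusted p under 0.05), and under LPS Dpp4 (1.26) and Kmo (0.37) were higher and Itgax (-0.59) lower. The stromal marker Pdgfrb (-0.45) was lower at rest, and under LPS Lum (0.84) was higher and Col1a1 (-0.73) and the epithelial marker Cdh1 (-0.70) were lower. None of 4 endothelial and 8 lymphocyte markers passed at rest (1 and 1 at an unadjusted p under 0.05) or under LPS (0 and 2). The part of these cell types in the ratios of the 7 genes was not tested.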

How the data were processed

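RNA of 4 two-colour arrays was used, 2 basal and 2 LPS, wildtype in Cy3 and knockout in Cy5. The deposited scanner files hold the median foreground and background intensity of each spot, from Agilent's Feature Extraction software. Its version was 11.5.1.1 per the file headers and 9.3.2.1 per the submitters' processing notes. Their deposited log10 ratios were not used. The authors' deposited value table holds log2 ratios, which differ from those of the processed signals by a constant of -0.00202 to 0.00507 per array (100% of probes within 0.001). Its column medians were 0.016, 0.0344, 0.0292 and 0.0306, and the sources used here do not give how the constant was set.

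Background was corrected by normexp (offset 50), ratios by loess and levels by Aquantile in limma 3.58.1 under R 4.3.3. Control spots and 207 to 255 outlier spots per array were left out. Probes with a channel well above background on at least 2 of the 4 arrays were kept (28635), and the brightest stood for a gene. Where design notes assumed mean intensities, medians were used because the files hold them. Accessions were matched to RefSeq symbols (27508 of 39429 probes matched, assembly GRCm38.p6). The headers name mm9, so no gene coordinates are given beyond those of the RefSeq promoters.

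limma with eBayes was fitted over all 23570 features and Benjamini-Hochberg adjusted (threshold 0.05), and the fit was tested on simulated data. All arrays lay on 1 slide and carried 1 scan date. Named are the 7 genes, the 2 genes nearest in level to each, the nearest measured genes on each side, and Cdk5r1. List genes past the threshold are also named, up to 4 a list and comparison, and all of them for the neutrophil markers. The 7 genes, the lists and the rules were chosen with earlier results of these data known. Probes not above background in a group got a bound on the mean of 2 arrays, which covers neither dye bias nor the spread between arrays. Alternatives were processed signals, an offset of 10, median centring, no filter, means over probes, scaling to the 75th percentile, the authors' table, each array left out, and replicate blocks, and the crossed block was chosen after seeing the data. Some alternatives cannot change a given value, as when a basal array is left out for an LPS ratio. The number of arrays limits the precision.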

Additional observations from a re-analysis of the deposited data

Results flagged for a closer look

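The difference between the LPS and the basal genotype ratio of Cep19, the neighbour of Pigx, was -1.13 on the log2 scale. It passed the test of that difference (limma adjusted p = 0.0155). Cep19 was reached through Pigx, a gene chosen on this difference from the same arrays, so the call is not independent of that choice. The call was lost in 5 of the 12 alternatives, which are listed beside the result.

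LPS moved the level of Acp6 down in wildtype and up in knockout cells on every array, with a difference of 2.55 (log2). This difference was not tested, because Acp6 was chosen for it.

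On the second Pigx probe, A_55_P2041539, the knockout over wildtype ratio was above 0 on both basal arrays and below 0 on both LPS arrays, with a difference of -1.33 (log2), which was not tested either. At rest the ratios were only 0.06 and 0.10. The brighter Pigx probe had -0.01 and 0.06 there, on both sides of 0.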

How the results depend on the processing

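The counts of features past the threshold were 1147 at rest, 2922 under LPS, 95 in the difference, and 9822 and 9840 for LPS against basal in wildtype and knockout cells. Processed signals gave 745, 1693 and 7 for the first 3, and with the authors' deposited log2 ratios 1741 passed under LPS and 8 in the difference. An offset of 10 gave 46 in the difference. Median centring in place of loess gave 4459 (3812 higher, 647 lower) at rest against 795 and 352 with loess, 5492 (4633 higher, 859 lower) under LPS against 1690 and 1232, and 228 in the difference. Scaling to the 75th percentile gave 15688 (11478 higher, 4210 lower) in wildtype and 14987 (10823 higher, 4164 lower) in knockout cells, with the median of all features at 0.375 and 0.363 in place of -0.008 and -0.015. With one array left out the counts ranged from 708 to 775 at rest, 410 to 3146 under LPS, 4 to 198 in the difference, 5200 to 8859 in wildtype and 4088 to 9602 in knockout cells. The low LPS counts were 515 and 410 without LPS replicate 1 and 2, those of the difference 5 and 4, and its 198 came without basal replicate 1. Without basal replicate 1 and 2, LPS against basal gave 5552 and 5200 in wildtype and 4790 and 4088 in knockout cells. The lone array of a state is then assumed to vary like the others. Among the family list genes, the neighbours of the 7 genes and Cdk5r1, no called genotype ratio or difference reversed its sign in any alternative. Sign was not checked for the other called features.

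The labels do not say whether same-numbered arrays share animals or cultures. Their deviations from the group means correlated at -0.16 for the ratios, which cannot settle pairing with so few arrays per state. The replicate block gave 58 in the difference and kept the other 4 counts within 1.5 times. A crossed pairing, chosen after seeing the data, gave 1842, 4395 and 367 for the first 3 counts. Cep19 kept its call in both block fits (adjusted p = 0.0405 and 0.00347).

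Among the 7 genes, the LPS ratio ranged from 2.52 to 2.81 for Acp6, 1.48 to 1.95 for Il17rd and -1.58 to -1.29 for Pigx. The LPS response of Pigx ran from -0.93 to 0.60 in wildtype and -2.48 to -0.88 in knockout cells, both ends set by leaving out 1 basal array. Dim channels moved most: the Tpbg difference was -2.19 with an offset of 10 and -3.18 with processed signals, that of Sult1d1 -2.09 and -3.27, and the LPS ratio of Csrp3 3.17 and 4.22. Averaging both probes took the Tns1 difference from -1.19 to -0.76. Of the 25 list calls under LPS, 1 (Dusp6) held in all 12 alternatives, and of the 8 at rest 2 did (Lef1 and Pigt). Signal near background limits Il17rd and Csrp3 at rest and wildtype Sult1d1, where small differences were not detectable.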
